A study of Arabidopsis thaliana with 6 samples.

Results

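The genes described here are 71 of the 1537 genes of the deposited table whose short description names a disease resistance protein, an NBS or NB-ARC domain, a leucine-rich repeat (LRR), a receptor-like protein, a lectin or wall-associated kinase, or a protein kinase; AT2G19190 was left out. They fell into 14 disease resistance genes, called NBS-LRR genes below, 27 receptor kinase genes, 16 other protein kinase genes and 14 LRR and receptor-like genes with no kinase named. The choice rested on descriptions and used no measured value. RNA was sequenced from whole 10-day-old Arabidopsis thaliana seedlings grown in long days on Murashige and Skoog plates. The BIC1-YFP group (3 libraries) carried BIC1 joined to yellow fluorescent protein, and the WT group (3 libraries) was the wild type; both were of the Columbia ecotype and each library was a biological replicate per the labels. The promoter that drives BIC1-YFP and the number of lines were not given in the sources used here. That line was compared with the wild type to study BIC1 in brassinosteroid signalling and growth.

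Plants detect microbes both outside and inside the cell. Receptor kinases and receptor-like proteins at the cell surface bind microbial or damage-derived molecules outside the cell; the receptor kinases signal through their own kinase domain, and the receptor-like proteins, which lack one, signal with partner kinases. NBS-LRR proteins, also called NLRs, sit inside the cell, bind nucleotides through the NB-ARC domain and respond to pathogen effectors; those of the TIR class carry a Toll and interleukin receptor-like domain at their N terminus. The description rule also took in protein kinases that are no receptors, such as plastid ABC1 kinases and CBL-interacting kinases. It took in LRR-extensins of the cell wall as well, and all of these are kept apart below. Classes follow the wording of the descriptions, so a receptor kinase described only as a protein kinase counts among the other kinases. The coding sequence of AT1G51840, counted there, is 86.0% identical over 96.3% of its length to that of the LRR receptor kinase AT1G51820.

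Values are the authors' normalized units of read abundance, which are not per gene length, so levels are compared between libraries and not between genes. The table is the list of genes that its authors selected as differing by genotype, so a gene missing from it is not shown to be unchanged. The depth of the libraries is unknown; the listed genes summed to 1801802 to 2064622 units per library. BIC1 itself had 16272, 14597 and 21868 units in BIC1-YFP seedlings, against 409, 351 and 259.8 units in WT seedlings. It was 51.7-fold higher in the group that the labels name BIC1-YFP. Replicate 1 of each genotype was written differently from the other libraries: of values under 200 units, 100% in BIC1-YFP replicate 1 and 99.0% in WT replicate 1 lay within 0.05 of a whole multiple of 1 step, and 12.3% to 16.1% did in the other 4 libraries. Results are therefore also given without replicate 1 of both genotypes.

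The receptor and kinase genes were mostly lower in BIC1-YFP seedlings. The mean was lower in BIC1-YFP seedlings for 64 of the 71 genes (90.14%), against 47.4% of all 1537 listed genes, and higher for 7. A gene was called at a Benjamini-Hochberg adjusted p under 0.05 in limma, fitted to log2(value + 1) over the 1531 listed genes that had at least 1 unit in 3 of the 6 libraries; all 71 genes passed that filter. The listed genes had been selected as differing between these same libraries. Adjusted p-values over them, here and below, are therefore too lenient as error rates. In limma 54 of the 71 genes fell and 3 rose, whereas 39.1% of all tested genes were called lower and 37.6% higher. The calls in either direction made up 80.3% of the 71 genes, close to the 76.6% of all tested genes. The median log2 fold change (BIC1-YFP over WT) was -0.84 over the 71 genes and 0.56 over all tested genes. The 3 libraries of one genotype did not overlap those of the other for 59 of the 71 genes, 55 of them lower in BIC1-YFP seedlings, against 75.9% of listed genes in either direction and 38.9% lower. A call with an absolute log2 fold change of at least 1 was made for 20 of the 71 genes, all lower, against 33.1% of tested genes. With p adjusted over at least 21574 tests, 2 of the 71 genes were called lower and 0 higher, with 50 calls over all tested genes. In whole seedlings, fewer cells of a type and less RNA per cell cannot be told apart.

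**Figure D1:**
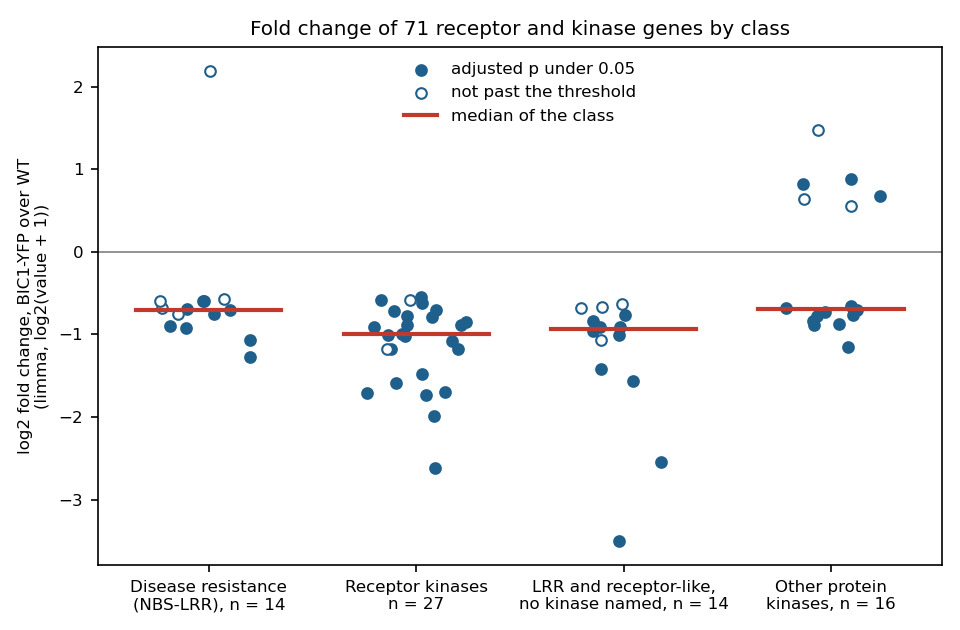
Log2 fold change (BIC1-YFP over WT, from limma on log2(value + 1)) of each of the 71 genes by class. Filled points passed an adjusted p of 0.05, open points did not, and the red bars are class medians. The receptor kinases and the genes with no kinase named all lie below 0, 1 open NBS-LRR point lies at 2.19, and 6 of the other protein kinases lie above 0.

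Single libraries weighed on how many genes passed. The 54 calls of lower genes became 18 without BIC1-YFP replicate 2, 34 without BIC1-YFP replicate 3, 28 without WT replicate 1 and 26 without WT replicate 2, and were 43 without BIC1-YFP replicate 1 and 54 without WT replicate 3. The 3 calls of higher genes became 1 without any 1 of the BIC1-YFP replicates, 0 without WT replicate 1 or 2, and 5 without WT replicate 3. Calls over all tested genes moved alongside and were 1173 with all libraries. They were 962, 441 and 710 without BIC1-YFP replicate 1, 2 and 3. Leaving out WT replicate 1, 2 and 3 gave 615, 607 and 1219. Without replicate 1 of both genotypes, a choice made after seeing the data, 6 of the 71 genes were called lower and none higher in limma (36 and 1 at an unadjusted p under 0.05), with 169 calls over all tested genes. No gene of the 71 changed sign in any of the 17 alternatives run, though only those on pseudocount, scaling and libraries could change a fold. The 15 genes whose call held with each library left out in turn comprised 1 NBS-LRR gene, 7 receptor kinases, 5 other kinases and 2 genes with no kinase named.

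**Figure D2:**
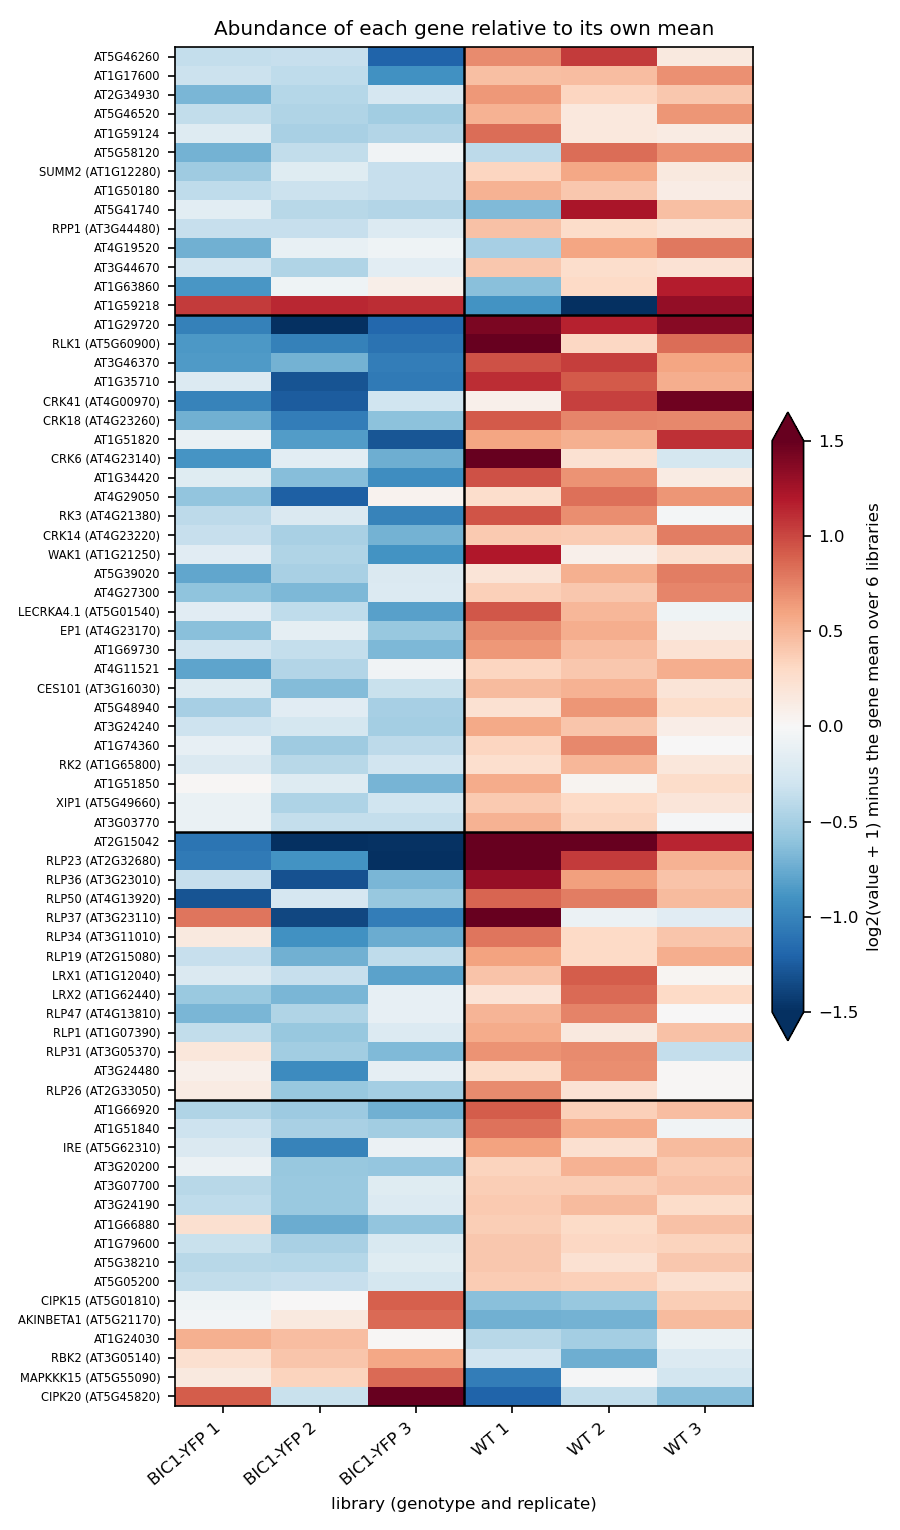
Abundance of the 71 genes in each library, as log2(value + 1) minus the gene's mean over the 6 libraries (colour scale cut at -1.5 and 1.5), with BIC1-YFP libraries at the left and WT libraries at the right. Horizontal lines part, from the top, NBS-LRR genes, receptor kinases, genes with no kinase named and other kinases. Of the 64 genes with a lower mean in BIC1-YFP seedlings, WT replicate 1 was the highest WT library for 34 and WT replicate 3 the lowest for 34.

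The gene with the largest called fall in each of 9 groups of surface and intracellular receptors is shown here with the 250 bases before its annotated start, so that the promoters of genes that fell can be set side by side. The sequences are RefSeq's, of build TAIR10.1, looked up by locus and read 5′ to 3′ on the gene's strand, and none of the windows holds an annotated exon of another gene. Capitals mark the W-box, TTGACC or TTGACT or either of them read from the other strand (GGTCAA or AGTCAA), which is known as a binding motif of WRKY transcription factors.
AT1G29720 (LRR receptor kinase), chr1:10399874-10400123, minus strand: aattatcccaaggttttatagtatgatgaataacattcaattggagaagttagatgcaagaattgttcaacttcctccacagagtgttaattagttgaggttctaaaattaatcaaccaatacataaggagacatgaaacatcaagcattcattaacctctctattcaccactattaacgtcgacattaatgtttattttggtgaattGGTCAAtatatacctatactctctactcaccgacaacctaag
CRK41 (AT4G00970, cysteine-rich receptor kinase), chr4:418077-418326, plus strand: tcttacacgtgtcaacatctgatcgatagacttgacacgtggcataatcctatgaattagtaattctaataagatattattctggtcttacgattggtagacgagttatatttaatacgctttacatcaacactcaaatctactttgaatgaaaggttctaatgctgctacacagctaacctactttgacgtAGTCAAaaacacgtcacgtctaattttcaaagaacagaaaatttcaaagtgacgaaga
RLK1 (AT5G60900, lectin receptor kinase), chr5:24501771-24502020, minus strand: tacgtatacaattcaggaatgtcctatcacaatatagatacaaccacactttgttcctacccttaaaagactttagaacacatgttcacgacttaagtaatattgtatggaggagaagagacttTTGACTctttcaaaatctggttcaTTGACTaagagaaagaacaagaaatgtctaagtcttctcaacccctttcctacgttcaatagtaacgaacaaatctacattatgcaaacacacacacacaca
AT5G39020 (malectin receptor kinase), chr5:15616520-15616769, plus strand: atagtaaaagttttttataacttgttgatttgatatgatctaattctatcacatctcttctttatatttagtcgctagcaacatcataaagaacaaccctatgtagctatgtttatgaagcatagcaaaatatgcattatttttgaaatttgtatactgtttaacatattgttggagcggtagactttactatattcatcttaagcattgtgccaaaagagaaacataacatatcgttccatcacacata
WAK1 (AT1G21250, wall-associated kinase), chr1:7438921-7439170, plus strand: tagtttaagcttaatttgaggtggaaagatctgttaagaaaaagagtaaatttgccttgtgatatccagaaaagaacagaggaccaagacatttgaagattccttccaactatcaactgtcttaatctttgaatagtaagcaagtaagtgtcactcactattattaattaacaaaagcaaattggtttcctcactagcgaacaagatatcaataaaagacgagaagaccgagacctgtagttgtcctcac
RLP23 (AT2G32680, receptor-like protein), chr2:13862615-13862864, minus strand: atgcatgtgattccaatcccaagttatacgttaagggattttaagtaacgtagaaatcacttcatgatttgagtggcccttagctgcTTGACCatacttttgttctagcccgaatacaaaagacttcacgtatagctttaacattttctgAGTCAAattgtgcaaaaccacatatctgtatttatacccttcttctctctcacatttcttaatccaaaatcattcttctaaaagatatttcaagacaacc
AT2G15042 (LRR protein), chr2:6510591-6510840, plus strand: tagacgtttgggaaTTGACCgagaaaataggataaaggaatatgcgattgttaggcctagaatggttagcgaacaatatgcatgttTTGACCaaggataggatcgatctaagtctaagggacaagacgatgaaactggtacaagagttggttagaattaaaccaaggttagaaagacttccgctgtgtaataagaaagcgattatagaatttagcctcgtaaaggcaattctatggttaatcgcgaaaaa
AT5G46260 (TIR-NBS-LRR), chr5:18763504-18763753, minus strand: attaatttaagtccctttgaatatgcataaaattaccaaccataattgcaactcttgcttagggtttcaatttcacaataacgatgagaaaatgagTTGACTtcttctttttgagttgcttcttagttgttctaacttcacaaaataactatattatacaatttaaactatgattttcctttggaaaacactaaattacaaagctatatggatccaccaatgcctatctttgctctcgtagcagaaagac
AT1G59124 (NBS-LRR without TIR), chr1:21816084-21816333, plus strand: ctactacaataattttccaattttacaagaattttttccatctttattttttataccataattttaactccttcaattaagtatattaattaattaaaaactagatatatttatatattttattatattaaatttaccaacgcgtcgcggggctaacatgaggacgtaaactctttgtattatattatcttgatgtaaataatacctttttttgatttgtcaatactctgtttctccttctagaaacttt
Of the 9 windows 6 held at least 1 W-box, and those of AT5G39020, WAK1 and AT1G59124 held none. The match nearest the gene was in AT1G29720, where it began 42 bases before the start, followed by CRK41, where it began 58 bases before the start. RLK1 held a pair that began 126 and 102 bases before the start, RLP23 a pair at 163 and 100 bases, AT2G15042 a pair at 236 and 164 bases, and AT5G46260 a single one at 154 bases. The windows of LRX1, a wall protein, and of AT2G34930, whose window holds an exon of another gene, are not printed and held 1 each.

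Over whole classes, the W-box was found on either strand in the 250 bases before the start of 17 of the 27 receptor kinase genes (63.0%) and of 10 of the 14 genes with no kinase named (71.4%). It was present in 5 of the 14 NBS-LRR promoters (35.7%) and in 3 of the 16 other kinase promoters (18.8%). The share was 49.3% over the 71 genes, 28.5% over the 1465 listed nuclear protein-coding genes and 28.4% over all 27443 nuclear protein-coding genes. Among the 35 genes with a W-box the median log2 fold change was -1.01 and 26 were called lower; among the 36 without one it was -0.72, with 28 called lower and 3 higher. The median was -1.08 for the 17 receptor kinases with a W-box and -0.84 for the 10 without, of which 15 and 10 were called lower. It was -0.60 for the 5 NBS-LRR genes with a W-box and -0.70 for the 9 without, of which 2 and 7 were called lower. The other kinases had -0.76 with one (n = 3) and -0.68 without (n = 13). The genes with no kinase named had -1.04 with one (n = 10) and -0.87 without (n = 4). The G-box CACGTG, a motif of bHLH and bZIP factors, was in 3 of the 71 promoters (4.23%), against 10.0% of the listed genes and 6.49% of all genes. CGTGCG or CGTGTG, known as the brassinosteroid response element and able to overlap the G-box, was in 4 of the 71 (5.63%), against 8.81% of the listed genes and 6.71% of all genes. These shares describe letters in a window and no difference between them was tested.

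**Figure D3:**
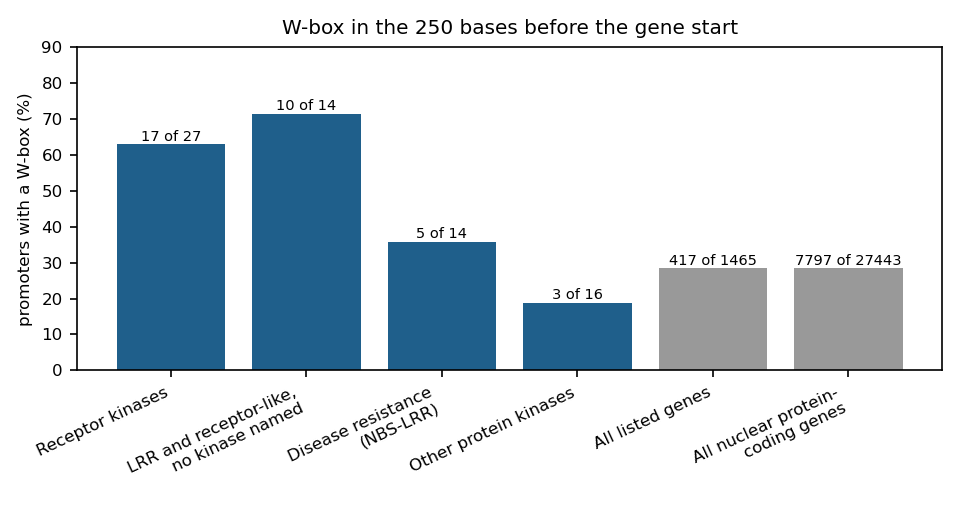
Share of promoters (%) with a W-box (TTGACC or TTGACT, either strand) in the 250 bases before the annotated start, for the 4 classes of genes in blue and for the listed and all nuclear protein-coding genes in grey, with the counts above the bars. The bars stand at 63.0% for receptor kinases and 71.4% for genes with no kinase named, and at 28.5% and 28.4% for the listed and all genes.

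Among the 27 receptor kinase genes, 25 fell and none rose in limma (26 and 0 at an unadjusted p under 0.05), with folds of 1.48 to 6.28 and a median log2 fold change of -0.995. The LRR kinases, many of which bind peptides and other ligands through their repeats, made up 11 of them, and 10 fell. AT1G29720 (chr1:10393659-10399873, TAIR10.1) had 24.0, 14.3 and 21.3 units in BIC1-YFP seedlings, against 133, 112 and 129 units in WT seedlings. It was 6.28-fold lower in BIC1-YFP seedlings, and the lowest WT library was several-fold above the highest BIC1-YFP library (limma log2 fold change -2.62 with SE 0.26, adjusted p = 0.00175). It and CRK18 were the 2 genes of the 71 still called when p was adjusted over at least 21574 tests, the number that the p and adjusted p of the authors' deposited table imply.

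AT3G46370 had 13.0, 14.5 and 11.3 units in BIC1-YFP seedlings, against 48.1, 50.8 and 37.2 units in WT seedlings (3.51-fold lower, limma adjusted p = 0.00490). AT1G35710 had 59.1, 27.2 and 32.2 units in BIC1-YFP seedlings, against 148, 129.9 and 99.8 units in WT seedlings, a fold of 3.19 (limma adjusted p = 0.00944). In both genes every BIC1-YFP library lay below every WT library, and both calls held with each library left out. AT1G51820 had 37.1, 21.8 and 15.7 units in BIC1-YFP seedlings, against 60.2, 57.7 and 86.2 units in WT seedlings, 2.74-fold lower (limma adjusted p = 0.0161); without BIC1-YFP replicate 2 its adjusted p was 0.0515. AT1G34420 had 14.0, 9.94 and 7.91 units in BIC1-YFP seedlings, against 32.1, 26.3 and 17.6 units in WT seedlings, 2.38-fold lower (limma adjusted p = 0.0259), and its call was lost without BIC1-YFP replicate 2 or 3 or WT replicate 1 or 2 (limma adjusted p up to 0.0798). The calls among the other LRR kinases included XIP1 (AT5G49660), also known as the receptor CEPR1 of C-terminally encoded peptides, which was 1.49-fold lower (limma adjusted p = 0.0248). It was named for its known ligand after its values were seen, and lost its call without BIC1-YFP replicate 2 or 3 or WT replicate 1 or 2. AT1G51850 was the LRR kinase that did not pass, with non-overlapping libraries at 276, 238 and 167 units in BIC1-YFP seedlings, against 400.3, 281 and 329 units in WT seedlings (limma adjusted p = 0.0601).

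The cysteine-rich group carries the extracellular DUF26 domain and is known for induction by pathogens and salicylic acid. It had 6 genes, 5 of which fell. CRK18 (AT4G23260) had 216, 172 and 232 units in BIC1-YFP seedlings, against 676, 593 and 585 units in WT seedlings. All BIC1-YFP libraries were far below the WT libraries, at 207 ± 31.0 units in BIC1-YFP seedlings and 618 ± 50.3 units in WT seedlings (SD, n = 3 each), 2.99-fold lower (limma log2 fold change -1.58 with SE 0.18, adjusted p = 0.00226). CRK41 had 39.1, 32.7 and 63.9 units in BIC1-YFP seedlings, against 83.3, 161 and 219 units in WT seedlings, 3.41-fold lower with a wide WT spread (limma log2 fold change -1.70 with SE 0.41, adjusted p = 0.0161), and missed the threshold without BIC1-YFP replicate 2 (limma adjusted p = 0.0537).

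CRK18 lies with CRK6, EP1 and CRK14 in a stretch of 48.7 kb (chr4:12121369-12170080, TAIR10.1) that holds 13 protein-coding genes, 4 of them in the table. CRK14 (AT4G23220) was 2.09-fold lower (limma adjusted p = 0.0176), and EP1 (AT4G23170), whose full description names DUF26 but no kinase domain, was 1.87-fold lower (limma adjusted p = 0.0230). CRK6 (AT4G23140) was not called: it had 4.01, 7.26 and 4.56 units in BIC1-YFP seedlings, against 31.1, 9.85 and 6.71 units in WT seedlings, and WT replicate 1 stood alone above the rest (limma adjusted p = 0.0926). The WT mean over the BIC1-YFP mean was 1.57 without that library and 3.01 with it. The call of CRK14 was lost when BIC1-YFP replicate 2 was left out (limma adjusted p = 0.0504), and that of EP1 without BIC1-YFP replicate 1 or 3 or WT replicate 1 or 2 (limma adjusted p up to 0.0630).

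All 7 lectin receptor kinase genes fell, by 1.54- to 5.65-fold. These kinases carry a sugar-binding type of domain outside the cell. RLK1 had the largest fold at low levels, 3.01, 2.61 and 2.37 units in BIC1-YFP seedlings, against 25.1, 8.05 and 11.98 units in WT seedlings, 5.65-fold lower (limma log2 fold change -1.99 with SE 0.48, adjusted p = 0.0159). Its libraries were narrow in BIC1-YFP seedlings and led by replicate 1 in WT seedlings. Without WT replicate 1 the fold was 3.77, and with a pseudocount of 5 in place of 1 the log2 fold change was -1.30. The S-locus lectin kinase AT4G27300, named after its values were seen because its call held with each library left out, had 238, 227 and 313 units in BIC1-YFP seedlings, against 463, 478 and 604 units in WT seedlings, 1.99-fold lower (limma adjusted p = 0.0107). The other 5 genes were the legume-type lectin kinases AT4G29050 and LECRKA4.1 and the S-domain kinases RK2, RK3 and CES101, with adjusted p of 0.0192 to 0.0364 in limma; each lost its call without 1 or more libraries, BIC1-YFP replicate 2 and WT replicate 2 among them in every case. LECRKA4.1 is overlapped over 2456 bases by an annotated gene on the opposite strand; whether reads were counted by strand was not given in the sources used here.

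Both wall-associated kinases also fell; proteins of this family span the plasma membrane and reach into the wall. WAK1 (AT1G21250), which binds pectin and its fragments, had 114, 93.5 and 68.5 units in BIC1-YFP seedlings, against 295, 135 and 152 units in WT seedlings. Replicate 1 was the highest library of both genotypes and the groups did not overlap, for a fold of 2.11 (limma log2 fold change -1.01 with SE 0.35, adjusted p = 0.0351). The call was lost without BIC1-YFP replicate 2 or 3 or WT replicate 1 (limma adjusted p up to 0.0967). AT1G69730, another member of the family, had 155, 148 and 119 units in BIC1-YFP seedlings, against 298, 263 and 221 units in WT seedlings (1.85-fold lower, limma adjusted p = 0.0146), and its call held with each library left out. The malectin-type kinase AT5G39020 had 25.04, 31.0 and 37.5 units in BIC1-YFP seedlings, against 50.2, 64.1 and 75.4 units in WT seedlings (2.03-fold lower, limma adjusted p = 0.0204), with no call without BIC1-YFP replicate 2 or WT replicate 2 (limma adjusted p up to 0.0568).

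**Figure D4:**
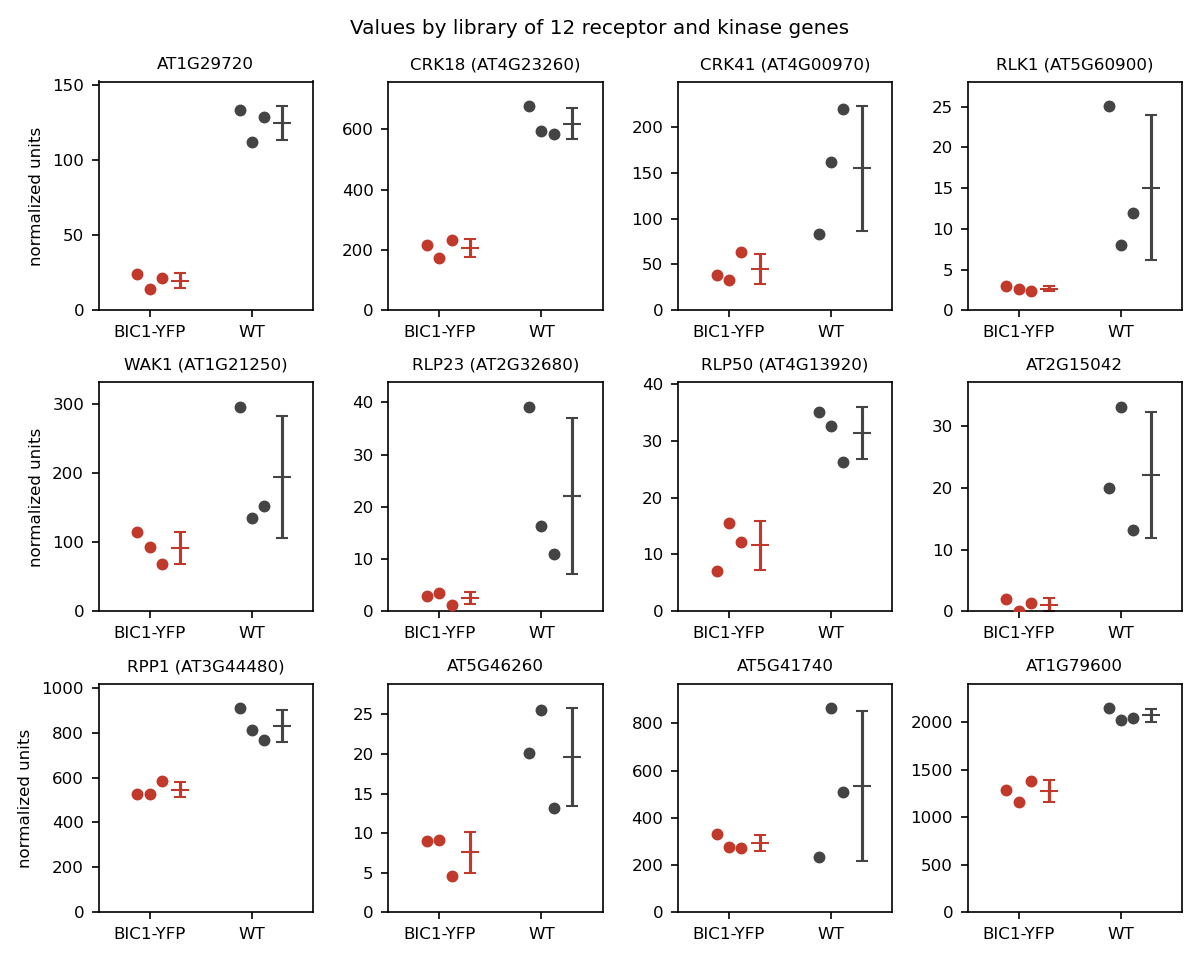
Normalized units in each library for 12 of the genes, with BIC1-YFP (red) left of WT (grey); points are the 3 libraries in replicate order and the bar beside them is the mean ± SD. In 11 panels the genotypes do not overlap, and in that of AT5G41740 they do, WT replicate 1 lying at 234 units below the BIC1-YFP libraries.

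The 10 receptor-like proteins and 4 other LRR genes with no kinase named all had a lower mean in BIC1-YFP seedlings, and 10 of the 14 fell, with a median log2 fold change of -0.94 over the class. RLP23, which binds a peptide of microbial NLP proteins and signals with SOBIR1 and BAK1, had 3.01, 3.49 and 1.32 units in BIC1-YFP seedlings, against 39.1, 16.3 and 11.04 units in WT seedlings. The BIC1-YFP libraries lay at low levels and the WT libraries spread widely, for 8.50-fold lower (limma log2 fold change -2.55 with SE 0.55, adjusted p = 0.0125). Without WT replicate 1 the fold was 5.25, and with a pseudocount of 5 the log2 fold change was -1.71. The deposited description matches AT2G15042 best to RLP34. By coding sequence its closest gene was AT5G25910, 84.6% identical over 89.6% of its length. AT2G15042 had 2.01, 0 and 1.31 units in BIC1-YFP seedlings, against 20.1, 33.2 and 13.1 units in WT seedlings. It was 20.01-fold lower by the means and was listed at 0 in BIC1-YFP replicate 2 (limma log2 fold change -3.51 with SE 0.57, adjusted p = 0.00585). The fold was 33.8 with BIC1-YFP replicate 1 left out. It was 13.3 with BIC1-YFP replicate 2 left out. The log2 fold change was -4.01 and -2.10 with pseudocounts of 0.5 and 5. The calls of RLP23 and AT2G15042 held with each library left out, and they were the 2 in the class of which this was so.

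RLP36 (AT3G23010) had 6.01, 2.60 and 4.54 units in BIC1-YFP seedlings, against 21.1, 12.7 and 10.95 units in WT seedlings, 3.399-fold lower (limma adjusted p = 0.0214). RLP50 (AT4G13920) had 7.01, 15.5 and 12.3 units in BIC1-YFP seedlings, against 35.1, 32.6 and 26.3 units in WT seedlings, 2.70-fold lower (limma adjusted p = 0.0178). Neither gene had overlapping libraries. RLP36 lost its call without BIC1-YFP replicate 2 or WT replicate 1 or 2 (limma adjusted p up to 0.0653). RLP50 is overlapped over 2757 bases by a gene on the opposite strand and lost its call without WT replicate 1 (limma adjusted p = 0.05001). RLP37 (AT3G23110), in the same 50.5 kb as RLP36, was not called: it had 27.03, 5.26 and 6.86 units in BIC1-YFP seedlings, against 57.2, 14.2 and 13.4 units in WT seedlings, with replicate 1 highest in both genotypes (limma adjusted p = 0.205). It is overlapped over 2508 bases by the protein-coding gene AT3G23100 on the opposite strand. The WT mean over the BIC1-YFP mean was 2.16 with all libraries. It was 4.66 without BIC1-YFP replicate 1 and 1.06 without WT replicate 1. Across the 10 receptor-like proteins WT replicate 1 was the highest WT library for 8 and BIC1-YFP replicate 1 the highest BIC1-YFP library for 6. RLP1, RLP19, RLP34 and RLP47 also fell, each losing its call without BIC1-YFP replicate 2 or WT replicate 1, while RLP26 and RLP31 did not pass (limma adjusted p = 0.0681 and 0.116).

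The LRR-extensins LRX1 and LRX2 are wall proteins known from root hairs, and both fell. LRX1 (AT1G12040) had 49.1, 44.8 and 32.2 units in BIC1-YFP seedlings, against 77.2, 108 and 58.3 units in WT seedlings, 1.93-fold lower (limma adjusted p = 0.0314). LRX2 (AT1G62440) had 25.04, 22.7 and 34.1 units in BIC1-YFP seedlings, against 43.1, 67.9 and 46.0 units in WT seedlings, 1.92-fold lower (limma adjusted p = 0.0287). Both lost the call without BIC1-YFP replicate 2 or WT replicate 2, among others (limma adjusted p up to 0.0918). Of 10 root markers 2 were in the table, PRP1 and PRP3 of root hairs, and both fell. Neither was called without WT replicate 1 or 2, nor PRP3 without BIC1-YFP replicate 2 or 3 (limma adjusted p up to 0.0534 for PRP1 and 0.0626 for PRP3). Their summed level was 172 to 245.0 units in BIC1-YFP libraries and 298 to 479 units in WT libraries, and neither was at 0 in any library. The part of root tissue in the values of LRX1 and LRX2 was not tested. The third wall gene, AT3G24480, had 516, 252 and 446 units in BIC1-YFP seedlings, against 593, 790.4 and 496 units in WT seedlings and did not pass (limma adjusted p = 0.0786).

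Of the 14 NBS-LRR genes, 9 fell, none rose and 5 did not pass in limma (9 lower and 0 higher at an unadjusted p under 0.05), with a median log2 fold change of -0.70. The NB-ARC domain is named for 13 of them, 8 of which fell. Folds of the called genes were 1.51 to 2.59. The share called was 64.3% of the class, all lower, against 76.6% of all tested genes in either direction and 39.1% lower. The 9 TIR genes all had a lower mean in BIC1-YFP seedlings, and 5 were called. The count of 9 became 1 without BIC1-YFP replicate 2, 5 without BIC1-YFP replicate 3, 5 without WT replicate 1 and 4 without WT replicate 2, and it was 0 without replicate 1 of both genotypes (6 at an unadjusted p under 0.05).

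AT5G46260 had 9.01, 9.08 and 4.61 units in BIC1-YFP seedlings, against 20.1, 25.5 and 13.2 units in WT seedlings, 2.59-fold lower (limma log2 fold change -1.27 with SE 0.41, adjusted p = 0.0286). AT1G17600 had 19.0, 18.2 and 12.3 units in BIC1-YFP seedlings, against 33.1, 33.4 and 39.3 units in WT seedlings, 2.13-fold lower (limma adjusted p = 0.0193), and was the NBS-LRR gene whose call held with each library left out. It is overlapped over 3193 bases by AT1G17610 on the opposite strand. AT5G46520, annotated as VICTR and known from a root growth response to a small molecule, had 31.0, 29.2 and 27.7 units in BIC1-YFP seedlings, against 58.2, 45.0 and 64.5 units in WT seedlings, 1.91-fold lower (limma adjusted p = 0.0201). Its coding sequence is 96.5% identical to that of its neighbour AT5G46510 over 92.5% of its length, so the reads of the pair may have been split and the value is uncertain. AT5G46260 lost its call without BIC1-YFP replicate 2 or 3 or WT replicate 1 or 2, and AT5G46520 without BIC1-YFP replicate 2 or WT replicate 1 (limma adjusted p up to 0.0900 and 0.0568).

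RPP1 (AT3G44480) is named for recognition of the downy mildew Hyaloperonospora, which was not tested for the form in these Columbia plants. It had 529, 528 and 583 units in BIC1-YFP seedlings, against 909, 811 and 768 units in WT seedlings. The groups were tight and apart, at 547 ± 31.6 units in BIC1-YFP seedlings and 829 ± 72.4 units in WT seedlings (SD, n = 3 each), 1.52-fold lower (limma log2 fold change -0.60 with SE 0.15, adjusted p = 0.0166). Without BIC1-YFP replicate 2 the adjusted p was 0.0568. Its relative AT3G44670 on the same chromosome had 425, 376 and 464 units in BIC1-YFP seedlings, against 684, 623 and 601 units in WT seedlings, 1.51-fold lower (limma adjusted p = 0.0199), and lost its call without BIC1-YFP replicate 2 or WT replicate 1 or 2 (limma adjusted p up to 0.0654). AT2G34930, an LRR protein described as a disease resistance protein with no NB-ARC domain named, had 25.04, 30.1 and 34.2 units in BIC1-YFP seedlings, against 65.2, 51.3 and 54.8 units in WT seedlings, 1.92-fold lower (limma adjusted p = 0.0191). It lost its call without BIC1-YFP replicate 2 or WT replicate 1 (limma adjusted p up to 0.0543) and is overlapped by a gene on the opposite strand over 3023 bases.

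The NBS-LRR genes without a TIR domain were 4, and 3 fell. SUMM2 (AT1G12280), which monitors a MAP kinase cascade, had 80.1, 102 and 91.3 units in BIC1-YFP seedlings, against 145, 174 and 128 units in WT seedlings, 1.64-fold lower (limma adjusted p = 0.0241). AT1G50180 had 45.1, 46.7 and 46.3 units in BIC1-YFP seedlings, against 85.3, 78.4 and 63.7 units in WT seedlings, 1.65-fold lower (limma adjusted p = 0.0259). AT1G59124 had 55.1, 44.8 and 46.3 units in BIC1-YFP seedlings, against 114, 71.03 and 69.2 units in WT seedlings, 1.74-fold lower (limma adjusted p = 0.0369). No library overlapped between the genotypes in these 3 genes, yet each call was lost without any 1 of the BIC1-YFP replicates or without WT replicate 1 or 2 (limma adjusted p up to 0.0711 for SUMM2, 0.0733 for AT1G50180 and 0.102 for AT1G59124). The coding sequence of AT1G59124 is 100% identical to that of AT1G58807, so its reads cannot be told from that gene's.

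AT1G59218, singled out after its values were seen, was the NBS-LRR gene with a higher mean in BIC1-YFP seedlings. It had 26.03, 27.7 and 27.3 units in BIC1-YFP seedlings, against 6.03, 0 and 31.6 units in WT seedlings. The BIC1-YFP libraries were alike, while the WT libraries ran from a listed 0 to above all of them, and the difference did not pass (limma log2 fold change 2.19 with SE 1.13, adjusted p = 0.101). Without WT replicate 3 it passed, as the 1 NBS-LRR gene called higher. The BIC1-YFP mean over the WT mean was then 8.96. It was 2.16 with all libraries and 1.44 without WT replicate 2. It shares a stretch of 16.7 kb with AT1G59124, and its coding sequence is 98.4% identical to that of AT1G58848, so its values are uncertain too.

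The 4 TIR genes that did not pass shared 1 feature, seen after the values were known: WT replicate 1 was the lowest WT library in each and lay below the highest BIC1-YFP library. AT5G41740 had 331, 276 and 274 units in BIC1-YFP seedlings, against 234, 865 and 507 units in WT seedlings (limma adjusted p = 0.173). AT1G63860, with the largest p of the class, had 76.1, 134 and 149 units in BIC1-YFP seedlings, against 90.3, 174 and 319 units in WT seedlings (limma adjusted p = 0.278). AT5G58120 and AT4G19520 had WT replicate 1 values of 316 and 257 units, with BIC1-YFP libraries of 254 to 402 and 219 to 347 units (limma adjusted p = 0.0808 and 0.156). BIC1-YFP replicate 1 was likewise the lowest BIC1-YFP library in AT1G63860, AT5G58120 and AT4G19520, but the highest in AT5G41740. The called AT1G17600 also had its lowest WT value in replicate 1, but that value, 33.1 units, lay above all its BIC1-YFP libraries. The second part of the feature is an overlap of the genotypes, which by itself makes a call less likely. Among the 10 receptor-like proteins WT replicate 1 was never the lowest of the WT group.

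Of the 16 other protein kinase genes, 10 fell and 3 rose. The 4 ABC1 kinases, plastid proteins of lipid and quinone metabolism and no immune receptors, fell by 1.58- to 1.70-fold with a small spread: the median coefficient of variation was 10.4% over their BIC1-YFP libraries and 4.17% over their WT libraries. AT1G79600, known as ABC1K3, had 1285, 1161 and 1384 units in BIC1-YFP seedlings, against 2148, 2019 and 2045 units in WT seedlings (limma log2 fold change -0.70 with SE 0.13, adjusted p = 0.00880). The calls of all 4 held with each library left out; they were singled out after their values were seen. Apart from these 4, 50 of the remaining 67 genes were called lower and 3 higher, with a median log2 fold change of -0.87.

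Green tissue markers moved in both directions with each library left out, with LHCB3, LHCA4 and CAB1 of light harvesting higher and the Rubisco genes RBCS1A and RBCS3B lower, and none at 0. The summed level of these 5 of 6 markers was 495456 to 554843 units in BIC1-YFP libraries and 583389 to 682280 units in WT libraries, and its part in the ABC1 values was not tested.

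AT1G66920 had 64.1, 60.4 and 53.0 units in BIC1-YFP seedlings, against 167, 113 and 122 units in WT seedlings, 2.26-fold lower (limma adjusted p = 0.00962), a call that held with each library left out. AT1G51840, whose full description names no kinase domain, lies next to AT1G51820 and AT1G51850 in 19.7 kb of chromosome 1 and had 32.0, 28.3 and 27.7 units in BIC1-YFP seedlings, against 71.2, 59.6 and 38.5 units in WT seedlings, 1.92-fold lower (limma adjusted p = 0.0304). The coding sequences of AT1G51820 and AT1G51850 are 90.004% identical. AT3G20200, a kinase with a nucleotide hydrolase-like domain, had 73.1, 52.1 and 51.9 units in BIC1-YFP seedlings, against 98.3, 113 and 103 units in WT seedlings, 1.77-fold lower (limma adjusted p = 0.0201). IRE (AT5G62310), an AGC kinase known from root hair growth, had 24.0, 13.5 and 26.4 units in BIC1-YFP seedlings, against 43.1, 33.3 and 39.4 units in WT seedlings, 1.81-fold lower (limma adjusted p = 0.0417). The 2 of 10 root markers in the table, described above, also fell, and the part of root tissue in the values of IRE was not tested. AT1G51840 was called with all libraries and without WT replicate 3, AT3G20200 lost its call without BIC1-YFP replicate 2 or 3 or WT replicate 2, and IRE lost it without any 1 of the 6 libraries (limma adjusted p up to 0.0913, 0.0618 and 0.110).

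The 3 genes that rose are described as kinases and not as receptors. MAPKKK15 (AT5G55090), of the MAP kinase kinase kinases, had 49.1, 56.1 and 80.7 units in BIC1-YFP seedlings, against 21.1, 44.0 and 36.4 units in WT seedlings, 1.83-fold higher (limma adjusted p = 0.0485). RBK2 (AT3G05140), which binds small GTPases of the ROP family, had 48.1, 54.3 and 61.2 units in BIC1-YFP seedlings, against 33.1, 24.0 and 35.3 units in WT seedlings, 1.77-fold higher (limma adjusted p = 0.0266). AT1G24030 had 84.1, 80.1 and 58.2 units in BIC1-YFP seedlings, against 43.1, 40.2 and 53.9 units in WT seedlings, 1.62-fold higher (limma adjusted p = 0.0399), and is overlapped over 1684 bases by a gene on the opposite strand. The groups did not overlap in any of the 3. MAPKKK15 lost its call without any 1 of the 6 libraries, RBK2 without BIC1-YFP replicate 2 or 3 or WT replicate 1 or 2, and AT1G24030 without BIC1-YFP replicate 1 or 2 or WT replicate 1 or 2 (limma adjusted p up to 0.146, 0.0782 and 0.110).

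The CBL-interacting kinases, which act with calcineurin B-like calcium sensors, did not pass. CIPK20 (AT5G45820) was just outside the threshold, at 12.01, 4.50 and 20.4 units in BIC1-YFP seedlings, against 2.01, 4.37 and 3.43 units in WT seedlings, a ratio of 3.76 that was not called (limma adjusted p = 0.05002). CIPK15 (AT5G01810) had 1043, 1098 and 2027 units in BIC1-YFP seedlings, against 705, 735 and 1406 units in WT seedlings; replicate 3 was the highest library of both genotypes and the groups overlapped (limma adjusted p = 0.168). AKINBETA1 (AT5G21170), a regulatory subunit of the SnRK1 energy-sensing kinase, showed the same order of libraries with 472, 539 and 873 units in BIC1-YFP seedlings, against 295, 296 and 676 units in WT seedlings (limma adjusted p = 0.151).

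The kinase genes as a whole, receptor and other, numbered 43, of which 35 fell and 3 rose. Without BIC1-YFP replicate 2, limma called 14 lower and 1 higher; with BIC1-YFP replicate 1 left out it called 28 and 1; with BIC1-YFP replicate 3 left out, 21 and 1; without WT replicate 1, 20 and 0; and without WT replicate 2, 17 and 0. Without replicate 1 of both genotypes 5 were lower and none higher (24 and 1 at an unadjusted p under 0.05). Between the classes, the share called lower was 92.6% of receptor kinases, 71.4% of genes with no kinase named, 64.3% of NBS-LRR genes and 62.5% of other kinases, each beside 39.1% of all tested genes; differences between classes were not tested.

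The well-known partners of these receptors were mostly outside the table. Of 20 pattern receptors and coreceptors, 3 were listed and all 3 fell: RLP23 and WAK1, above, and LORE (AT1G61380), the S-domain kinase that senses bacterial hydroxy fatty acids, with 283, 245 and 252 units in BIC1-YFP seedlings, against 428, 387 and 457 units in WT seedlings, 1.63-fold lower (limma adjusted p = 0.0146), not called without BIC1-YFP replicate 2 (limma adjusted p = 0.0520). Of 16 known NBS-LRR receptors only RPP1 was listed. Of 13 NLR partners and helpers only HSP90.1 (AT5G52640), a chaperone of NLRs and a heat shock protein, was listed; it rose, with 859, 1192 and 1648 units in BIC1-YFP seedlings, against 372, 377 and 982 units in WT seedlings, and WT replicate 3 overlapped the BIC1-YFP libraries (2.14-fold higher, limma adjusted p = 0.0364), and it was not called without BIC1-YFP replicate 2 or 3 or WT replicate 1 or 2 (limma adjusted p up to 0.103). None of 9 kinases and oxidases below the pattern receptors, such as BIK1, MPK3 and RBOHD, was listed. Of 6 brassinosteroid receptor kinases and partners, among them BRI1 and BIN2, only the phosphatase BSU1 (AT1G03445) was listed, at 12.02, 10.9 and 8.99 units in BIC1-YFP seedlings, against 23.1, 27.2 and 27.2 units in WT seedlings, 2.43-fold lower (limma adjusted p = 0.0146). Of 6 floral and seed markers SEP1 and CRA1 were listed; SEP1 fell and CRA1 did not pass, and their summed level was 7.02 to 93.5 units in BIC1-YFP libraries and 28.1 to 48.9 units in WT libraries.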

How the data were processed

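RNA of whole seedlings was sequenced on an Illumina HiSeq instrument after Trizol extraction, per the labels' protocols. The submitters' processing notes name TAIR10 and Cufflinks, while the aligner, the counting, its strand setting and the scaling between libraries were not given in the sources used here. Of their results the authors deposited 1 table with a normalized signal per gene and library, their genotype means, a log2 fold change and both a raw and an adjusted p-value, and its genes are those they had selected. No whole reads could be taken back from 4 of the 6 libraries, so no count test was used. Genes with at least 1 unit in 3 of 6 libraries (1531 of 1537) were compared on log2(value + 1) by limma 3.58.1 (R 4.3.3) using a variance trend and no covariate, after a test on simulated data; p-values were adjusted by Benjamini-Hochberg over all tested genes. Folds are ratios of means, while log2 fold changes are differences of mean log2(value + 1). The added 1 shrinks the change of low genes. Uneven libraries can also part these measures in either direction. AT1G59218 had a log2 fold change of 2.19 with a ratio of means of 2.16. Precision rests on 3 libraries per genotype. Coding sequences were compared with blastn 2.17.0, and a near copy had at least 95% identity over at least 50% of the length. Coordinates and promoters are from RefSeq's TAIR10.1; all 71 genes were matched by locus.

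The genes, classes and lists were chosen with earlier results of these data known. Named genes were, per class, the called genes with the largest absolute log2 fold change and a mean of at least 10 units in the higher genotype (up to 8 per direction for NBS-LRR genes and receptor kinases, up to 4 for the others), the genes on a list and the gene with the largest p of each class. These are the 32 named genes counted below. Neighbours in a cluster are described with them. Other genes were described outside this rule with their values known. Some are marked where they occur. AT1G69730, AT5G39020, LRX1, LRX2, AT3G24480, AT3G44670, CIPK20 and AKINBETA1 are further ones, not marked there. Alternatives varied the pseudocount, filter, scaling, variance trend, replicate block, fold minimum, number of tests, source of the p-value and libraries.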

Additional observations from a re-analysis of the deposited data

How the results depend on the processing

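Calls were counted again with pseudocounts of 0.5 and 5, no filter, a filter at 10 units, median-ratio scaling and no variance trend. Each count stayed within 1.5 times that reported. A pseudocount of 5 moved the folds of AT2G15042, RLP23 and RLK1 by over 1.5 times. No gene changed sign, though only the alternatives on pseudocount, scaling and libraries could change a fold. With each library left out in turn, the genes called ranged over 0 to 5 higher and 18 to 54 lower, the NBS-LRR genes over 0 to 1 higher and 1 to 9 lower, the kinase genes over 0 to 4 higher and 14 to 33 lower, and the calls among the 32 named genes over 10 to 28, against 28 with all libraries. Without replicate 1 of both genotypes, an alternative chosen after seeing the data, 0 genes were higher and 6 lower, with 0 NBS-LRR genes lower, 0 kinases higher, 5 kinases lower and 6 named genes called; fewer libraries entered these fits. Requiring an absolute log2 fold change of at least 1 left 0 genes higher and 20 lower, 2 NBS-LRR genes lower, 0 kinases higher, 13 kinases lower and 16 named genes. Adjusting over 21574 tests left 0 higher and 2 lower, with 0 NBS-LRR genes, 0 kinases higher, 2 kinases lower and 2 named genes. By the adjusted p of the authors' deposited table, on which the genes were selected, 7 genes were higher, 1 of them an NBS-LRR gene and 6 kinases. Same-numbered libraries deviated together for replicates 1 and 3, with correlations of 0.411 and 0.429. BIC1-YFP replicate 1 had -0.385 with WT replicate 3, and BIC1-YFP replicate 3 had -0.428 with WT replicate 1. BIC1-YFP replicate 2 had 0.0415 with WT replicate 2 and 0.0887 with WT replicate 1. The labels state no pairing, so the main fit held no replicate term and left any shared replicate effect in its spread. With the replicate block 6 genes were higher, all 6 kinases, and 61 were lower, with 1445 calls over all tested genes against 1173. The block called CIPK15 higher and RLP37 and AT1G63860 lower (limma adjusted p = 0.00372, 0.0182 and 0.0378), which are not called in the report. Depth is unknown, so how far it limits genes of a few units, such as RLP23 and RLK1, cannot be given.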
